A study of Mus musculus with 12 samples.

Results

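The 8 genes described here encode the machinery by which antigen-presenting cells show peptides to CD4+ T cells on major histocompatibility complex (MHC) class II molecules. They were chosen by gene symbol, as H2-Aa, H2-Ab1, H2-Eb1, H2-DMa, H2-DMb1, Cd74, Ciita and Ctss, and all 8 were found among the 22068 gene names of the deposited liver table. Livers came from 12 male C57BL/6J mice, individually housed, 21 weeks old and 3 in each group, on one of 4 diets for 16 weeks from 5 weeks of age. The groups were a normal diet (ND), a high-fat diet (HFD), the HFD with 1.5% (w/w) ethanol extract of chrysanthemum leaves (CLE), and the HFD with 0.003% (w/w) luteolin (LU), a flavone. The HFD is therefore common to the HFD, CLE and LU groups, and the design asks what it changed and what each supplement changed on top of it. The deposited values are FPKM (fragment numbers divided by transcript length and by the mapped fragments of the library), which were summed over the transcripts of each gene. All 8 genes averaged 0.5 FPKM or more over the livers, the limit for testing, and they were tested within a fit of 11482 genes.

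Class II molecules are pairs of an α and a β chain that reach the cell surface with a peptide cut in endosomes. In the endoplasmic reticulum the new pair is plugged by the invariant chain, Cd74, which the protease cathepsin S (Ctss) trims to a short remnant, and the H2-DM pair then exchanges that remnant for antigenic peptide. Transcription depends on Ciita, a coactivator that does not bind DNA itself but joins the RFX, CREB and NF-Y proteins on the X and Y boxes of class II promoters. In liver these genes are chiefly used by Kupffer cells, monocyte-derived macrophages, dendritic cells and B cells, and little by hepatocytes. In whole liver RNA, fewer cells of a type and less RNA per cell cannot be told apart.

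The H2 members lie together in the MHC on chromosome 17. In GENCODE M21 (GRCm38), H2-DMa is at chr17:34119541-34139101, H2-DMb1 at chr17:34153072-34160230 and H2-Ab1 at chr17:34257689-34269419, all on the plus strand. H2-Aa is at chr17:34282744-34287823 on the minus strand and H2-Eb1 at chr17:34305867-34316674 on the plus strand. Ciita is at chr16:10480059-10528418 and Ctss at chr3:95526786-95556403, both on the plus strand. RefSeq promoter windows (GRCm38.p6, 250 bases before and 50 from each transcript start) were found for 5 of the 8 members. The promoter stretches below are shown because they hold the boxes through which Ciita acts, and a search letter by letter found the Y box core TGATTGG, on the coding strand, in the windows of H2-Aa, H2-Eb1 and H2-DMb1. Capitals mark the matched letters, first the X box and then the Y box. In H2-Aa, the first capitals are the cAMP response element TGACGTCA, to which CREB binds. In H2-Eb1 and H2-DMb1, they are the longest stretch that both windows share before their starts with 1 mismatch allowed, CTAGNAACTGATGATGCT, where N is the mismatch.
H2-Aa, chr17:34287859-34287913, minus strand: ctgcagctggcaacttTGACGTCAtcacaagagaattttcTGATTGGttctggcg
H2-Eb1, chr17:34305767-34305820, plus strand: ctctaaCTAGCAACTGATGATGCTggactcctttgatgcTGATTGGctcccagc
H2-DMb1, X box, chr17:34153090-34153115, plus strand: ttacCTAGTAACTGATGATGCTaggc
H2-DMb1, Y box, chr17:34153120-34153142, plus strand: tcactcagTGATTGGtctgacct

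The Y box core began 50 bases before the RefSeq start in H2-Aa, 61 bases before it in H2-Eb1 and 63 bases before it in H2-DMb1. The X box spelling began 94 and 97 bases before the start in H2-Eb1 and H2-DMb1, and the cAMP response element 74 bases before it in H2-Aa. For H2-DMb1 the RefSeq start lies downstream of the M21 gene start, so both of its stretches are inside the gene as M21 draws it. On either strand, TGATTGG was in 7.82% of the 32851 promoter windows of the same length and TGACGTCA in 1.79%. CTAGNAACTGATGATGCT was in 2 windows (0.00609%), those of H2-Eb1 and H2-DMb1 from which it was taken. The 2 windows of H2-DMa hold none of these motifs. The spellings were chosen after the sequences had been seen, so these shares describe the letters and test nothing. The Ctss window holds no match to the class II motifs, but it holds the tandem repeat of an interferon-stimulated response element, GAAA and GAAA with 2 bases between, which 3.44% of the windows carry on either strand. It begins 21 bases before the start and is in capitals.
Ctss, chr3:95526753-95526783, plus strand: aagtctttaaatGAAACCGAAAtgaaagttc

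The libraries differed in ways that touch these genes. Summed FPKM over the gene names ran from 1691252 in ND liver 4 to 5566562 in CLE liver 4, and the main fit did not rescale them. LU liver 3 had the highest value of the 12 livers for 8 of 8 members, and CLE liver 11 the second highest for 7 of 8. LU liver 3 is also the library in which albumin, listed at 0 in the other libraries, has a value. These 2 livers carry the labels of their groups and stayed in the analysis, and results are also given without them. Because they were picked by the members' own values, results without them are a description and support no call. The deviation of genes from their mean over the livers correlated with GC content (Spearman's coefficient over 11349 genes, a description) at -0.37 to -0.14 in the ND and HFD libraries and at 0.16 to 0.48 in the CLE and LU libraries. The sign of this correlation thus split the libraries by supplement, and its part in the list genes' differences between supplemented and other livers was not tested. The members' GC content ran from 45.9% in Ctss to 57.34% in H2-Ab1.

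The classical chains H2-Aa (α chain of I-A), H2-Ab1 (β chain of I-A) and H2-Eb1 (β chain of I-E) were expressed at similar levels per length. H2-Aa read 24.7, 29.8 and 38.2 FPKM in the ND livers, 56.6, 45.7 and 41.5 in the HFD livers, 57.2, 37.2 and 83.8 in the CLE livers, and 38.1, 93.1 and 45.4 in the LU livers. All 3 HFD livers were above the ND livers, and the CLE and LU livers ran from within the ND range to far above the HFD range. The mean was 30.9 ± 6.83 in ND, 47.9 ± 7.82 in HFD, 59.4 ± 23.4 in CLE and 58.8 ± 29.9 in LU (SD, n = 3).

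H2-Ab1 read 22.02, 29.7 and 33.3 FPKM in ND, 42.9, 36.1 and 29.7 in HFD, 40.4, 30.4 and 66.4 in CLE, and 32.4, 83.2 and 30.9 in LU. It is the member whose HFD and ND livers overlapped. H2-Eb1 read 20.9, 29.96 and 29.65 FPKM in ND, 48.2, 39.8 and 34.4 in HFD, 47.6, 25.6 and 70.1 in CLE, and 32.9, 81.1 and 34.8 in LU. C57BL/6 mice carry a defective gene for the α chain of I-E, so the H2-Eb1 product lacks its partner in this strain, yet its RNA stood at 0.84 to 1.18 times that of H2-Ab1 in the 12 livers. The ratio of H2-Aa to H2-Ab1 lay between 1.00 and 1.47.

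Cd74, which both chaperones new class II pairs and serves as a surface receptor for the cytokine MIF, had the highest level of the 8 in every liver. It read 43.7, 53.3 and 54.9 FPKM in ND, 88.4, 71.7 and 72.8 in HFD, 101, 70.3 and 138 in CLE, and 67.7, 165 and 69.9 in LU. Every liver on the high-fat diet, with or without a supplement, was above the 3 ND livers. Its ratio to H2-Aa stayed between 1.44 and 1.89 in the 12 livers, while H2-Aa itself spanned 24.7 to 93.1 FPKM. The 2 reference forms of Cd74 differ by 1 exon of 192 bases, which lengthens the protein by a protease-inhibitor domain. The short form was the more abundant one in each liver, and the long form held 17.1% (ND liver 2) to 27.0% (LU liver 3) of their summed FPKM. In the other 10 livers it held 22.3% to 25.5%.

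**Figure D1:**
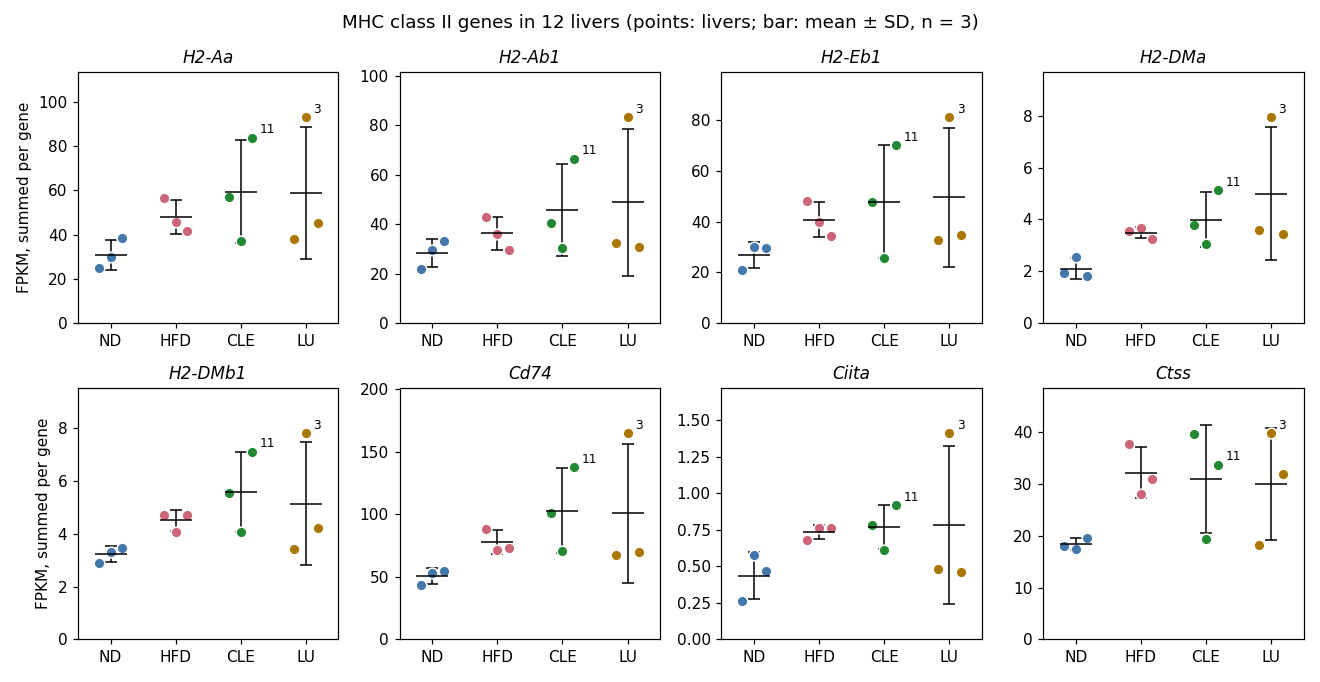
FPKM of the 8 MHC class II genes in the ND, HFD, CLE and LU livers (y axis, summed per gene and starting at 0; each panel has its own scale). Points are livers, in order of mouse number, and black bars are the mean ± SD (n = 3). LU liver 3 and CLE liver 11, marked by number, lie apart above the other livers of their groups in most panels, and the 3 ND livers lie below all others for H2-DMa and Cd74.

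H2-DMa and H2-DMb1 encode the pair that loads peptide, and they stood at about the level of several FPKM. H2-DMa read 1.95, 2.55 and 1.81 FPKM in ND, 3.57, 3.67 and 3.25 in HFD, 3.80, 3.05 and 5.13 in CLE, and 3.58, 7.94 and 3.44 in LU. As with Cd74, the ND livers were below the 9 others. H2-DMb1 read 2.90, 3.30 and 3.47 FPKM in ND, 4.72, 4.06 and 4.71 in HFD, 5.55, 4.05 and 7.09 in CLE, and 3.41, 7.79 and 4.21 in LU. Under this gene name the deposited table also holds rows of the neighbouring gene H2-DMb2, a near copy (chr17:34143307-34151555), and the split between the copies is uncertain. With rows assigned by M21 gene, H2-DMb1 ran from 2.40 (CLE liver 4) to 6.91 FPKM (LU liver 3) and H2-DMb2 from 0.408 to 1.65.

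Ciita, the coactivator, was the lowest of the 8. It read 0.264, 0.578 and 0.469 FPKM in ND, 0.680, 0.763 and 0.761 in HFD, 0.782, 0.611 and 0.918 in CLE, and 0.480, 1.41 and 0.459 in LU. The HFD and CLE livers lay above the ND livers, and LU livers 2 and 8 lay within the ND range. Ctss read 17.96, 17.4 and 19.6 FPKM in ND, 37.6, 28.1 and 30.9 in HFD, 39.7, 19.4 and 33.6 in CLE, and 18.2, 39.7 and 31.9 in LU. Its ND livers were tightly grouped at 18.3 ± 1.16 (SD, n = 3), and CLE liver 4 and LU liver 2 stood at the ND level. Ctss followed the other members less closely, since its ratio to Cd74 ran from 0.241 in LU liver 3 to 0.457 in LU liver 8.

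The effect of the HFD itself was the first comparison. The HFD mean was above the ND mean for 8 of 8 members, by 1.28 times for H2-Ab1 to 1.76 times for Ctss, but no member passed the test in the fit of all 12 livers (limma, Benjamini-Hochberg adjusted p of 0.05), against 10.0% of all genes that passed higher. An unadjusted p under 0.05 was met by 2 of 8, Ctss and H2-DMa, against 27.3% of all genes. The HFD and ND livers did not overlap for 7 of 8 members, with HFD higher, against 29.1% of all tested genes. The median log2 difference of the members was 0.57 on the log2(FPKM + 1) scale, which understates the change of low genes, and that of all tested genes was 0.12. With median-of-ratios scaling the median over all genes moved to -0.01, and the members' differences still ran from 0.19 to 0.62.

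Ctss had the largest difference between HFD and ND livers, 0.77 ± 0.27 (SE; adjusted p = 0.0827 by limma). The differences of H2-Aa (0.63 ± 0.32, adjusted p = 0.23), Cd74 (0.61 ± 0.30, adjusted p = 0.213) and H2-Eb1 (0.59 ± 0.36, adjusted p = 0.311) were similar in size. H2-DMa differed by 0.54 ± 0.23 (adjusted p = 0.157), H2-DMb1 by 0.38 ± 0.22 (adjusted p = 0.30), H2-Ab1 by 0.35 ± 0.35 (adjusted p = 0.568) and Ciita by 0.28 ± 0.17 (adjusted p = 0.332).

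These calls turned on which livers set the spread. When the ND and HFD livers alone were fitted, 5 of 8 members passed as higher in HFD, against 13.1% of all genes. They were Ctss (adjusted p = 0.00431), Cd74 (0.0129), H2-DMa (0.0196), H2-Aa (0.037) and H2-Eb1 (0.0431), and the estimates themselves were the same. In a fit of all groups without LU liver 3 and CLE liver 11, H2-DMa (adjusted p = 0.02) and Cd74 (0.0263) passed, against 9.64% of all genes. Those livers were picked for their high values of these same genes, which narrows the members' spread, so this fit does not support the calls.

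**Figure D2:**
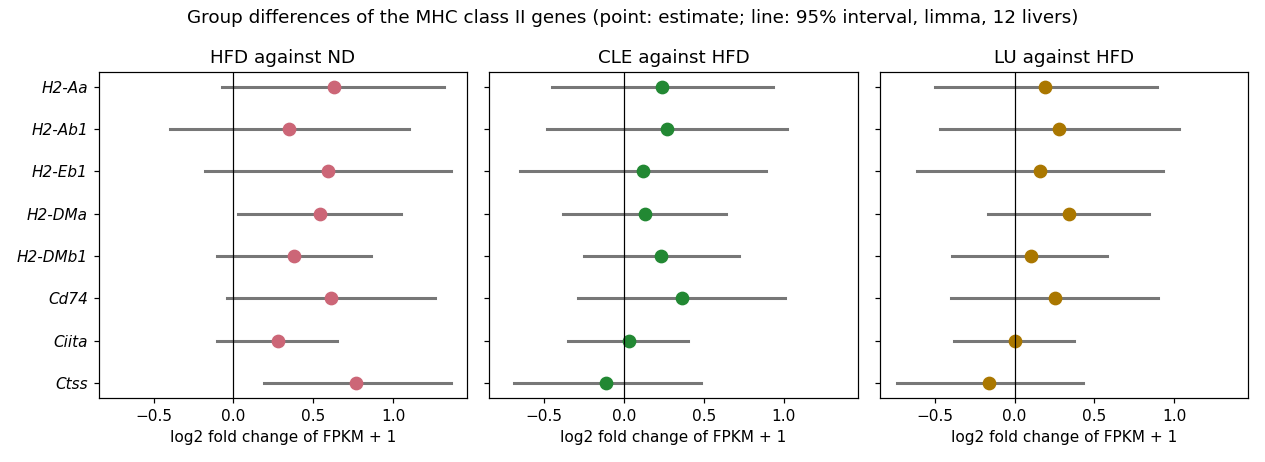
Log2 difference of FPKM + 1 for the 8 genes for the effect of the HFD (against ND, left) and of each supplement (against HFD, middle CLE and right LU). Points are limma estimates from the fit of 12 livers and lines their 95% intervals. The HFD estimates lie at 0.28 to 0.77 above ND, and each supplement's interval for each gene crosses 0.

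The second question was whether the supplements changed these genes on top of the HFD. CLE and HFD livers overlapped for all 8 members, no member passed the adjusted or the unadjusted test, against 6.00% and 29.5% of all genes. The differences ran from -0.11 (Ctss) to 0.36 (Cd74), with a median of 0.18 against 0.02 for all genes. The 95% interval of Cd74 was -0.29 to 1.01, so a small decrease and a log2 rise near 1 were both inside it, and that of H2-Aa was -0.45 to 0.93. LU and HFD livers also overlapped for all 8, none passed either test, against 1.03% and 20.3% of all genes. Here the differences ran from -0.16 (Ctss) to 0.34 (H2-DMa), with a median of 0.18 against -0.02. The interval of H2-DMa was -0.17 to 0.84, and that of Cd74 -0.40 to 0.90. With a correction for GC content, added after the data were seen, the members' median against HFD was 0.03 in CLE (-0.11 to 0.23). In LU it was 0.13 (-0.08 to 0.22).

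The sign of these small differences depended on which liver was left out. By construction, leaving out the highest liver of a group lowers its difference, and leaving out the lowest raises it. CLE liver 4 was the lowest of its group for 8 of 8 members and LU liver 2 for 5 of 8. Without CLE liver 4, 8 of 8 members were above HFD in CLE, with differences of 0.09 to 0.60. Without LU liver 2, 8 of 8 were above HFD in LU, with differences of 0.11 to 0.49. Without LU liver 3 and CLE liver 11, 2 of 8 members were above HFD in CLE, with differences of -0.20 (H2-Eb1) to 0.12 (Cd74), and 1 of 8 in LU, with differences of -0.39 (Ctss) to 0.01. None passed the test in that fit either. The extract and its comparison compound luteolin were fed at different doses, and between CLE and LU livers no member passed the adjusted or the unadjusted test, against 0.00871% and 4.40% of all genes. The differences of CLE minus LU ran from -0.20 (H2-DMa, 95% interval -0.71 to 0.30) to 0.14 (H2-DMb1, -0.35 to 0.62).

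Set against ND, the supplemented livers were higher on average for 8 of 8 members. Between CLE and ND livers, Cd74 (0.96 ± 0.30, adjusted p = 0.0327 by limma) and H2-DMa (0.67 ± 0.23, adjusted p = 0.0498) passed as higher, 2 of 8 against 20.9% of all genes. The means of Cd74 were 50.6 ± 6.07 FPKM in ND and 103 ± 33.6 in CLE (SD, n = 3). Between LU and ND livers, H2-DMa alone passed (0.88 ± 0.23, adjusted p = 0.0284), 1 of 8 against 11.2% of all genes, from 2.10 ± 0.393 FPKM in ND to 4.99 ± 2.56 in LU. These comparisons use the same ND livers as that of HFD. The calls were borderline. With only the highest transcript of each gene, H2-DMa had 0.62 (adjusted p = 0.131 by limma) in CLE and 0.52 (adjusted p = 0.226) in LU against ND. With a correction for GC content added after the data were seen, no member passed against ND, H2-DMa at 0.34 (adjusted p = 0.352) in CLE and 0.62 (adjusted p = 0.12) in LU, and Cd74 at 0.65 (adjusted p = 0.167) in CLE. Leaving out ND liver 2, ND liver 3, ND liver 4, CLE liver 2 or CLE liver 11 in turn also left 0 calls between CLE and ND, leaving out CLE liver 4 gave 5, and without LU liver 3, ND liver 2 or ND liver 4 none remained between LU and ND. A fit without LU liver 3 and CLE liver 11 together kept the calls. Between CLE and ND, Cd74 had 0.73 (adjusted p = 0.0176) and H2-DMa 0.51 (adjusted p = 0.0301), against 17.7% of all genes. Between LU and ND, H2-DMa had 0.55 (adjusted p = 0.0469), against 4.97%. These 2 livers were picked by the members' values and not by those of all genes. Leaving them out narrows the members' spread by choice, so this fit does not support the calls. In the test among all 4 groups no member passed, against 24.5% of all genes, with H2-DMa (adjusted p = 0.057) and Cd74 (0.085) nearest.

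The members varied widely within the supplemented groups. The median SD of the members on the log2 scale was 0.18 in ND and 0.19 in HFD livers, but 0.50 in CLE and 0.62 in LU livers. Over all tested genes the median SD was 0.14, 0.13, 0.19 and 0.14 in the same order. Outside the list, the leukocyte gene Ptprc, whose level went with the members over the livers, read 3.67, 8.58 and 4.03 FPKM in LU livers. For the members, the highest LU liver was 2.18 times (Ctss) to 3.08 times (Ciita) the lowest. In CLE livers, liver 4 was the lowest of its group for 8 of 8 members and liver 11 the highest for 7 of 8. In LU livers, liver 3 was the highest for 8 of 8. Relative to each gene's mean over the 12 livers, the median member stood at 1.01 in LU liver 3, 0.70 in CLE liver 11 and 0.29 in CLE liver 2 on the log2 scale, against -0.21 in CLE liver 4, -0.20 in LU liver 2 and -0.10 in LU liver 8. ND liver 2 was at the bottom with -0.66 and was the lowest of the 12 livers for 6 of 8 members.

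**Figure D3:**
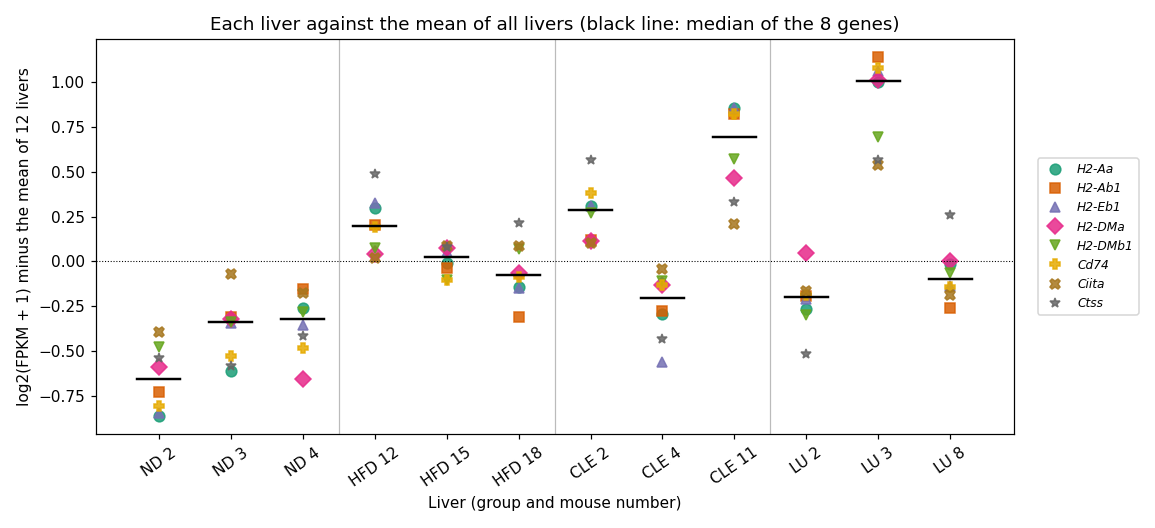
Each gene's log2(FPKM + 1) minus its mean over the 12 livers (y axis), by liver (x axis, group and mouse number). Symbols are the 8 genes and black lines their median in that liver. In LU liver 3 and CLE liver 11 all 8 genes are above their means, and in the 3 ND livers and CLE liver 4 all 8 are below.

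The other genes of the pathway were given by lists. Of 9 tested genes for class II processing and loading, 3 rose in HFD against ND livers and none fell (10.0% and 2.13% of all genes), with a median of 0.27. They were Ifi30, the thiol reductase that opens disulfide bonds of antigens (0.88 ± 0.16, adjusted p = 0.0046), Lgmn, the asparagine endopeptidase that makes early cuts in the invariant chain (0.80 ± 0.19, 0.0162), and the cathepsin Ctsb (0.63 ± 0.13, 0.00882). Ifi30 read 8.83, 12.2 and 11.7 FPKM in ND and 22.8, 16.3 and 23.9 in HFD livers. None of the 9 rose in CLE against HFD livers, and Ctsh, an aminopeptidase, fell by 0.52 (adjusted p = 0.0337). In that comparison 2.71% of all genes rose and 3.29% fell. In LU against HFD livers none passed. The most abundant of the list, the cathepsins Ctsl and Ctsd, had 0.21 (adjusted p = 0.272) and 0.33 (adjusted p = 0.0923) in HFD against ND livers. Of 7 genes that encode the RFX, NF-Y and CREB factors of the class II promoter, none passed in HFD against ND (median 0.04). In CLE against HFD, Creb1 fell by 0.45 (adjusted p = 0.0491, list median 0.05), 1 of 7 against 3.29% of all genes. None passed in LU against HFD, where Creb1 had -0.48 (adjusted p = 0.0762). The NF-Y subunits Nfyb and Nfyc, the most abundant of these, had -0.06 and 0.04 in HFD against ND livers.

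Of 6 tested genes of the interferon-γ pathway, the classical inducer of Ciita, none passed in HFD against ND or LU against HFD livers. Irf1, a transcription factor that interferon-γ induces, rose by 0.53 in CLE against HFD livers (adjusted p = 0.0452). That was 1 of 6, and 2.71% of all genes rose. In that comparison 4 of the 6 had negative differences (list median -0.24). The kinase Jak1, which relays the signal of the receptor, had 0.25 (adjusted p = 0.264) in HFD against ND livers. Of 12 genes of MHC class I presentation, the pathway used by all nucleated cells, none passed in HFD against ND (median 0.17) or LU against HFD (median 0.23). The peptide trimmer Erap1 fell by 0.85 in CLE against HFD (adjusted p = 0.0291, list median 0.12), 1 of 12 against 3.29% of all genes. B2m, the light chain of class I, and H2-K1, a heavy chain, had 0.48 (adjusted p = 0.107) and -0.17 (adjusted p = 0.434) in HFD against ND livers. Of 4 tested costimulatory ligands, Cd86, which antigen-presenting cells show with class II, rose in HFD against ND by 0.68 (adjusted p = 0.0142). This was 1 of 4 against 10.0% of all genes, and none passed in CLE or LU against HFD. Cd86 read 1.11, 1.43 and 1.38 FPKM in ND and 2.71, 2.27 and 3.11 in HFD livers, and Cd274, which encodes the inhibitory ligand PD-L1, had 0.22 (adjusted p = 0.603).

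Among markers of the cells that carry class II, the sums for all leukocytes and for Kupffer cells were higher in HFD than in ND livers. The sum for B cells was not. Over the 3 markers of all leukocytes (Ptprc, Laptm5 and Coro1a), the summed level was 13.45 to 14.96 FPKM in ND, 22.8 to 26.85 in HFD, 23.65 to 33.5 in CLE and 17.2 to 34.4 in LU livers. Laptm5 rose in HFD against ND by 0.93 (adjusted p = 0.0262), 1 of 3 against 10.0% of all genes. In CLE against HFD livers Coro1a, an actin-binding protein of leukocytes, rose by 0.63 (adjusted p = 0.0409, list median 0.01), 1 of 3 against 2.71% of all genes. The sum over 10 Kupffer cell and macrophage markers was 155 to 174 FPKM in ND, 220 to 322 in HFD, 229 to 293 in CLE and 181 to 300 in LU livers. Of these markers 5 rose in HFD against ND (10.0% of all genes), and none passed in CLE (2.71% higher and 3.29% lower) or LU (1.03% in either direction) against HFD. They were the macrophage proteins Cd5l (1.14 ± 0.23, adjusted p = 0.00712) and Vsig4 (0.92 ± 0.19, 0.00777), the complement genes C1qb (0.77 ± 0.18, 0.0147) and C1qc (0.76 ± 0.19, 0.0196), and the growth factor receptor Csf1r (0.69 ± 0.20, 0.042). Clec4f, the defining Kupffer cell lectin, had 0.42 ± 0.17 (adjusted p = 0.123) and was at 33.7 FPKM or above in each liver. None of 9 monocyte and recruited macrophage markers passed in HFD against ND livers (summed 101 to 103 FPKM in ND and 150 to 197 in HFD), nor did any of 5 tested dendritic cell markers (11.2 to 14.3 and 14.8 to 21.1 over the 8 listed).

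No tested B cell or T cell marker passed as higher in HFD against ND livers. None of 3 tested B cell markers passed, with a sum over 5 of 2.43 to 3.43 FPKM in ND, 2.14 to 3.08 in HFD, 3.07 to 5.65 in CLE and 2.65 to 3.71 in LU livers. Of 3 tested T cell markers none rose and Cd4 fell by 0.55 in HFD against ND (adjusted p = 0.0275), 1 of 3 against 2.13% of all genes. No list gene was at 0 in a library for leukocytes, Kupffer cells, dendritic cells or B cells. None of 3 tested neutrophil markers passed in HFD against ND. Among cells that are not leukocytes, 3 of 5 stellate cell markers (Lrat, Col1a1 and Col3a1) and 1 of 6 sinusoidal endothelial markers (Stab2) rose in HFD against ND livers, against 10.0% of all genes, and none of 2 tested cholangiocyte markers, 1 tested adipocyte marker or 6 hepatocyte markers passed. In CLE against HFD livers 1 of 5 stellate cell markers rose, Des (0.43, adjusted p = 0.048). Of 6 hepatocyte markers 1 rose, Apoa1 (0.84, adjusted p = 0.037), and 2.71% of all genes rose. Negative differences were seen for 4 of the 5 stellate cell markers (list median -0.29) and 4 of the 6 hepatocyte markers (list median -0.16). The hepatocyte list (6 genes, albumin not among them) summed to 9031 to 15330 FPKM over the 12 livers. The adipocyte genes Adipoq and Plin1 were below the limit for testing. Adipoq read 0.758, 0.508 and 0.50 FPKM in LU livers, and in HFD livers it read 0.037 in liver 12 and was listed at 0 in the other two. Plin1 read 0.338, 0.211 and 0.14 FPKM in LU livers, and in HFD livers it read 0.021 in liver 15 and was listed at 0 in the other two. The part of cell numbers, or of these other cell types, in the members' values was not tested.

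**Figure D4:**
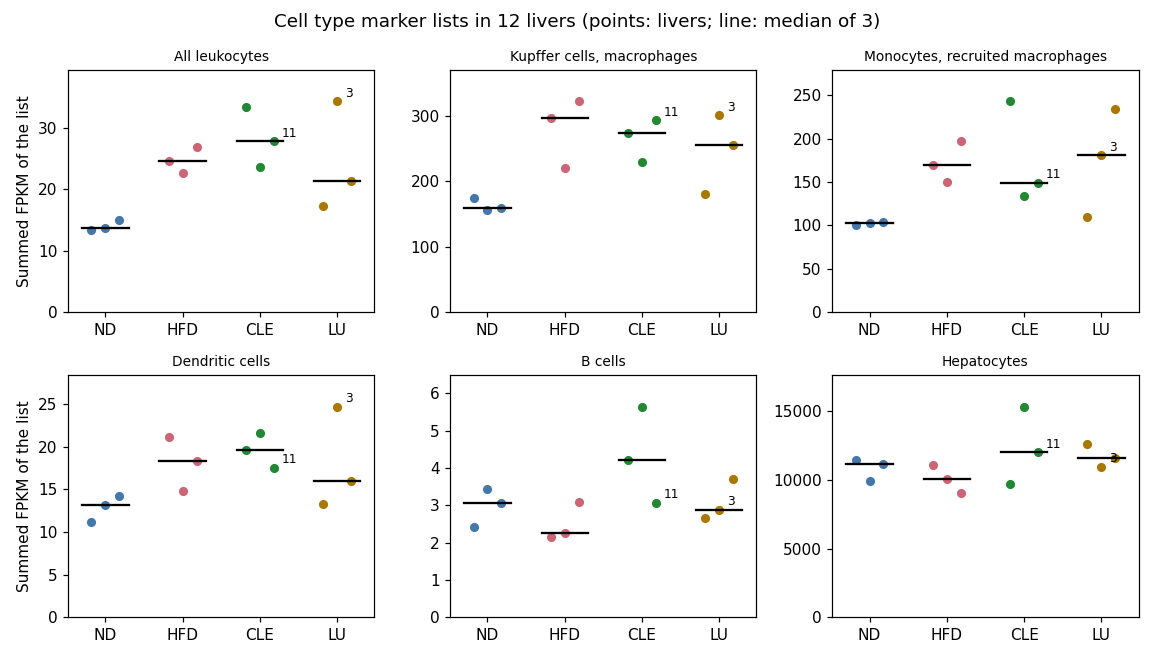
Summed FPKM of 6 marker lists (y axis, from 0) in the ND, HFD, CLE and LU livers. Points are livers, black lines the median of 3, and LU liver 3 and CLE liver 11 are marked by number. The leukocyte and Kupffer cell lists lie lowest in ND, LU liver 3 is the highest for leukocytes (34.4 FPKM) and dendritic cells (24.7 FPKM), and CLE liver 11 is the highest of its group for Kupffer cells and macrophages (293 FPKM) and not for leukocytes, dendritic cells or B cells.

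Cd74 and H2-Aa were also set against the leukocyte marker Ptprc (CD45, a phosphatase of all nucleated blood cells) in the same liver. Cd74 per Ptprc was 13.4 to 15.3 in ND, 12.4 to 14.7 in HFD, 14.0 to 22.8 in CLE and 17.4 to 19.2 in LU livers, where the highest value was that of CLE liver 11. Ptprc itself read 3.27, 3.72 and 3.59 FPKM in ND, 6.75, 4.89 and 5.86 in HFD, 6.61, 5.01 and 6.04 in CLE, and 3.67, 8.58 and 4.03 in LU. The LU livers thus lay above both the ND and the HFD livers in Cd74 per Ptprc, with no overlap, a description that was not tested. Ptprc is only 1 of the leukocyte markers listed and was named after being seen. No ratio to Laptm5 or Coro1a was taken, so the values hold for Ptprc and not for leukocytes in general. H2-Aa per Ptprc was 7.58 to 10.65 in ND, 7.08 to 9.33 in HFD, 7.43 to 13.9 in CLE and 10.37 to 11.3 in LU livers, so here the LU livers overlapped the ND livers. Per Clec4f, Cd74 stood at 1.21 to 1.63 in ND, 1.35 to 1.90 in HFD, 1.23 to 2.22 in CLE and 1.42 to 2.89 in LU livers, and the 4 groups overlapped.

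The genes outside the list whose levels went most like the mean standardised profile of the 8 members over the 12 livers were Creb3l2, 1810011H11Rik, Saa3, Mmaa and Arhgap30. Pearson's r was 0.95, 0.94, 0.93, 0.92 and 0.92, and Spearman's coefficient 0.92, 0.97, 0.93, 0.80 and 0.92, in this order. Without LU liver 3 and CLE liver 11, r was 0.88, 0.90, 0.89, 0.83 and 0.88. They are the 5 highest of all tested genes, so the values describe the choice, and the livers share diets and library composition. Saa3, an acute-phase serum amyloid made by macrophages and adipocytes among others, read 1.41, 1.90 and 2.73 FPKM in ND, 13.5, 9.16 and 6.88 in HFD, 14.0, 8.72 and 20.9 in CLE, and 9.13, 37.1 and 7.27 in LU. It placed LU liver 3 and CLE liver 11 at the top, as the class II genes did, with every ND liver below every other liver. Arhgap30 read 1.61 to 1.77 FPKM in ND livers and 3.64 in LU liver 3, and Ptprc ranked 11 by the same measure.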

How the data were processed

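RNA of 12 livers was sequenced, and mice were grouped by their labels, which name the CLE group CLL. Per the labels and methods, the authors ran CASAVA 1.8.2, TopHat2 2.0.12 with Bowtie2 2.2.3, and Cufflinks 2.2.1, and deposited FPKM per transcript. Whether these include the normalization factors the methods name, and the genome build, are not given in the sources used here. GENCODE M21 (GRCm38) gives the same ends for 85.5% of the known transcripts. Depth is unknown, and no counting interval can be given.

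FPKM were summed over 143450 of 152210 transcripts by gene name. Left out were 6316 without a name and 2444 of 102 names found on several chromosomes. Differences between groups were tested by limma 3.58.1 (R 4.3.3) after taking log2(FPKM + 1). The fit held 12 livers, modelled the variance trend, had 12.83 degrees of freedom, and covered 11482 genes averaging 0.5 FPKM or more (Benjamini-Hochberg, 0.05). On simulated data (HFD against ND, 11482 genes), 198 of 200 changed genes were recovered and 12 others called. The change given to them was larger than any member's difference between HFD and ND livers, and genes as low as Ciita were not among them. Recovery of differences of the members' size was not tested. P-values measure the spread between mice.

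The text names all 8 members, list genes that passed, the 2 most abundant of each pathway list (1 for the interferon-γ list, the other not being reported here), and the 5 genes most like the members. The members, lists and alternatives were chosen with earlier results of these data known. Also named, having been seen first, are Clec4f, Ptprc, albumin and H2-DMb2. H2-DMb2, Irf8, Tapbp and Cd79a are not analysed here as list genes. Mouse numbers are shared by only 2 pairs of ND and CLE, 2 of ND and LU and 1 of CLE and LU livers from different mice. Alternatives were pseudocounts of 0.1 and 0.5, no filter, a limit of 5 FPKM on the mean, median-of-ratios and quantile scaling, a fit of 2 groups, no variance trend, known transcripts, the highest transcript, each liver left out, and the mouse number as a block. Sums by M21 gene, a GC correction and a fit without LU liver 3 and CLE liver 11 were added after the data were seen.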

Additional observations from a re-analysis of the deposited data

How the results depend on the processing

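Between HFD and ND livers each member fitted kept its direction under every alternative run, and the count that passed as higher moved from 0 to 5 in the fit of these 2 groups alone and to 2 without LU liver 3 and CLE liver 11. Between CLE and ND the 2 calls went to 0 with no filter, median-of-ratios scaling, quantile normalization, the GC correction and the replicate block, and to 1 with a mean of at least 5 FPKM (which leaves 5 members), known transcripts and the highest transcript (7 members each), and sums by M21 gene. The limit of 5 FPKM removes H2-DMa itself (mean 3.64 FPKM), so its call there was not tested rather than lost. Between LU and ND the 1 call went to 0 with no filter, the mean of at least 5 FPKM (again without H2-DMa), quantile normalization, the fit of 2 groups, the highest transcript, the GC correction and the replicate block. Leaving out 1 liver gave 0 to 5 calls for CLE against ND, 0 to 2 for LU against ND, and 0 to 2 members past the test among 4 groups. That count was 1 with a pseudocount of 0.1 and 2 without LU liver 3 and CLE liver 11. Apart from the removal of H2-DMa by the limit of 5 FPKM, the cause of these shifts was not tested.

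Reversals occurred in the comparisons against HFD and between CLE and LU, and none of the alternatives run reversed a member's difference from ND. In LU against HFD, Ciita became 0.01 with median-of-ratios scaling. In CLE against HFD, Ciita became -0.01 with quantile normalization, and with the GC correction H2-DMa became -0.05, Ciita -0.11 and Ctss 0.01. In CLE against LU, H2-Eb1 became 0.09 with known transcripts and 0.09 with the highest transcript, H2-DMa 0.10 with the highest transcript, and Ciita -0.03 with the GC correction. With the replicate block, H2-Aa became -0.17 and Cd74 -0.04 in CLE against LU. Mouse numbers pair no animals: same-numbered livers correlated at -0.26 to 0.18 in their deviations, and the block changed no call other than those named. No paired analysis was possible for the HFD livers because they share no mouse number with another group.

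Without LU liver 3 and CLE liver 11, CLE against HFD became -0.04 for H2-Aa, -0.03 for H2-Ab1, -0.20 for H2-Eb1, -0.03 for H2-DMa and -0.03 for Ciita. LU against HFD became -0.19 for H2-Aa, -0.18 for H2-Ab1, -0.25 for H2-Eb1, -0.20 for H2-DMb1 and -0.17 for Cd74, and CLE against LU 0.15 for H2-Ab1 and 0.05 for H2-Eb1. With each liver of the compared groups left out in turn, CLE against HFD ran from -0.04 to 0.53 for H2-Aa, -0.03 to 0.52 for H2-Ab1, -0.20 to 0.50 for H2-Eb1, -0.03 to 0.27 for H2-DMa, -0.03 to 0.09 for Ciita and -0.31 to 0.19 for Ctss. LU against HFD ran from -0.19 to 0.44 for H2-Aa, -0.18 to 0.52 for H2-Ab1, -0.25 to 0.39 for H2-Eb1, -0.20 to 0.30 for H2-DMb1, -0.17 to 0.47 for Cd74, -0.24 to 0.12 for Ciita and -0.39 to 0.15 for Ctss. CLE against LU ran from -0.23 to 0.43 for H2-Aa, -0.31 to 0.45 for H2-Ab1, -0.37 to 0.37 for H2-Eb1, -0.38 to 0.13 for H2-DMa, -0.07 to 0.43 for H2-DMb1, -0.13 to 0.52 for Cd74, -0.10 to 0.26 for Ciita and -0.26 to 0.35 for Ctss. Of the other results, 800 member differences kept their direction and side of the threshold. The 224 other counts stayed as in the main fit, and most of these were counts with no member called.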
